A study of Mus musculus with 4 samples.

Results

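The p53 pathway was followed here in stimulated mouse CD4 T cells through 8 genes: the target genes Cdkn1a, Ccng1, Phlda3, Zmat3, Trp53inp1 and Eda2r, the regulator Mdm2, and Trp53, which encodes p53 itself. The count files list 32285 genes in all, and the 8 were found in them by symbol. They had been picked with earlier values of these cells known, so their levels, and their relation to Myc and to cell size, are given as a description with no test. Only the comparison of genotype labels and the other genes of the pathway were tested, and the lists of those genes were also drawn up with earlier results known, so their p-values are no independent evidence.

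The cells were T cells of the spleen, sorted for CD3 and CD4 and kept for 6 hours on Dynabeads with anti-CD3 and anti-CD28, which stand in for antigen and costimulation. All groups shared this sort, this culture and the C57BL6/J strain, and there was no unstimulated group. Each sex gave 1 library labelled Irf5-/-, called labelled knockout here, and 1 labelled WT, called labelled wild type. Irf5 encodes an interferon regulatory factor, and the study compared the 2 genotypes. The age of the mice, the number of mice in a library and the design of the Irf5 allele are not given in the sources used here, so the p-values measure only the spread between these 4 samples. Transcripts were counted as unique molecular identifiers (UMIs) in droplets by 3′ single-cell RNA sequencing.

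p53 is a transcription factor that accumulates when DNA is damaged or ribosome production fails, and in resting conditions Mdm2 marks it for destruction. Its targets halt the cell cycle, repair DNA, kill the cell or feed back on p53, and Mdm2 is itself a target. In T cells, signals through the antigen receptor and CD28 switch on Myc, a transcription factor that drives growth in size and entry into the cell cycle. p53 binds DNA as a tetramer over a pair of half-sites of the known p53 half-site motif.

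In the GENCODE annotation of GRCm38, Phlda3 lies at chr1:135766119-135769136, Ccng1 at chr11:40748552-40755311, Trp53inp1 at chr4:11156431-11174379 and Cdkn1a at chr17:29090976-29100727. Mdm2 lies at chr10:117688875-117710758, Zmat3 at chr3:32334792-32366014, Eda2r at chrX:97333840-97377216 and Trp53 at chr11:69580359-69591873. Each span is that of the whole gene.

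The promoters were searched because the members are grouped by their link to p53. The sequences come from the RefSeq promoter table for GRCm38.p6, and each window of 250 bases before to 50 bases after the annotated start was read. Of the 8 members, 6 matched the table. Trp53inp1 and Zmat3 were not matched. An exact copy of the half-site motif stood in 8.36% of all 32851 windows, and a pair of half-sites with up to 2 mismatches in all, none of them in the 4 core bases of a half-site, and up to 13 bases between them stood in 2.12%. The motif is its own reverse complement, so both strands were covered. By this rule Cdkn1a alone among the 6 matched members held a pair, in chr17:29090886-29090967 on the plus strand. Ccng1 held 1 exact half-site in chr11:40755442-40755491 on the minus strand. Mdm2 held one in chr10:117710915-117710964 on the minus strand. Trp53 held one in chr11:69580264-69580313 on the plus strand. Each stretch is printed from 5′ to 3′ in the direction of the gene, with the matched half-sites in capitals.
Cdkn1a: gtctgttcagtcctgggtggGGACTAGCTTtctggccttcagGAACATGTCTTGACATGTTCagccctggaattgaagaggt
Ccng1: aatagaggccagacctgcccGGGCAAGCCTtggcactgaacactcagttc
Mdm2: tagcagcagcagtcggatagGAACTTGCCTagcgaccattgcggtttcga
Trp53: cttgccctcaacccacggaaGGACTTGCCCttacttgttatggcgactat

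In Cdkn1a the capitals ran from 73 to 32 bases upstream of the start. The first and second half-sites were exact and stood 12 bases apart, and the third, which follows the second without a gap, had 1 mismatch. With mismatches allowed at any base, a choice made after the data were seen, 10.07% of windows held a pair and so did Ccng1, whose exact half-site directly follows 10 bases with 1 mismatch. The half-sites of Ccng1 and Mdm2 began 185 and 186 bases upstream, and that of Trp53 began 75 bases upstream. No match was found in the windows of Phlda3 and Eda2r, or in the second annotated window of Cdkn1a. A match describes letters in these windows and is neither a measured site nor a cause, and the absence of one says nothing about p53.

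The libraries held 28841161 to 55850754 UMIs. Barcodes with at least 2000 UMIs, at least 500 detected genes and at most 10% mitochondrial UMIs were taken as cells, which left 19100 cells. Values for the 4 libraries are given below in a fixed order: females labelled knockout, females labelled wild type, males labelled knockout, males labelled wild type. In this order 6178, 1814, 6543 and 4565 cells were kept. Median depth was 5104.5, 8416, 6741 and 9661 UMIs a cell, so within each sex the library labelled knockout was the shallower. Droplets with fewer than 200 UMIs, a measure of free RNA, carried 8.62%, 36.2%, 9.56% and 14.7% of the UMIs, and the female library labelled wild type stood apart. Any 2 libraries shared 2 to 14 barcodes. The 5 CD4 T markers summed to 1261 to 1449 CPM, that is UMIs scaled to a common total of counts per library. Markers of other cells summed to 0.947 to 6.52 CPM for B cells, 5.71 to 14.1 for NK cells, 33.1 to 62.1 for myeloid cells and 7.86 to 10.3 for CD8 T cells. Erythroid markers summed to 14.9, 1412, 24.0 and 43.0 CPM, and the library of females labelled wild type stood apart again. No marker was at 0 in all libraries.

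Irf5 went against the genotype labels. It stood at 8.57 and 9.07 CPM in the female and male libraries labelled knockout, and at 0.936 and 1.18 CPM in those labelled wild type. Whether labels were exchanged between libraries, or the allele still gives 3′ reads, was not tested. This level therefore does not settle which label is right for a library. Every direction by genotype below is therefore one of labels.

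Among the genes that act on the cell cycle and growth, Cdkn1a encodes p21, an inhibitor of cyclin-dependent kinases. Its level was 35.8, 49.3, 46.8 and 52.2 CPM, lowest in the female library labelled knockout. Ccng1 encodes cyclin G1, which brings a phosphatase to Mdm2, and its level was 65.4, 64.9, 67.4 and 57.5 CPM. Phlda3, a small protein that competes with the kinase Akt for membrane lipids, stood at 17.9, 17.5, 17.5 and 11.5 CPM. Both were lowest in the male library labelled wild type, and their other 3 libraries lay close together.

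Zmat3, a zinc finger protein that binds RNA, stood at 19.6, 18.9, 19.1 and 14.6 CPM. It shared the low value of the male library labelled wild type with Phlda3 and Ccng1. Trp53inp1, a stress protein that promotes p53 activity, stood at 122, 129.6, 125 and 122 CPM. Eda2r, a receptor of the TNF receptor superfamily, had 4 UMIs, all from 1 cell of the male library labelled wild type, and none in the other 3 libraries. The count of 0 allows up to 0.0877, 0.187 and 0.0630 CPM in these 3 libraries, or up to 0.0486%, 0.165% and 0.0459% of cells with a UMI. Intervals and such limits cover counting error only, and Eda2r is left out of what follows.

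In the loop between p53 and its regulator, Mdm2 encodes the ubiquitin ligase of p53 and stood at 41.1, 44.9, 44.1 and 37.8 CPM. Trp53 stood at 127, 116, 129 and 126 CPM. The spread over libraries of both was small, and the labels overlapped for Mdm2. For Trp53 both libraries labelled knockout lay above both labelled wild type, by less than 1 CPM at the nearest.

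**Figure D1:**
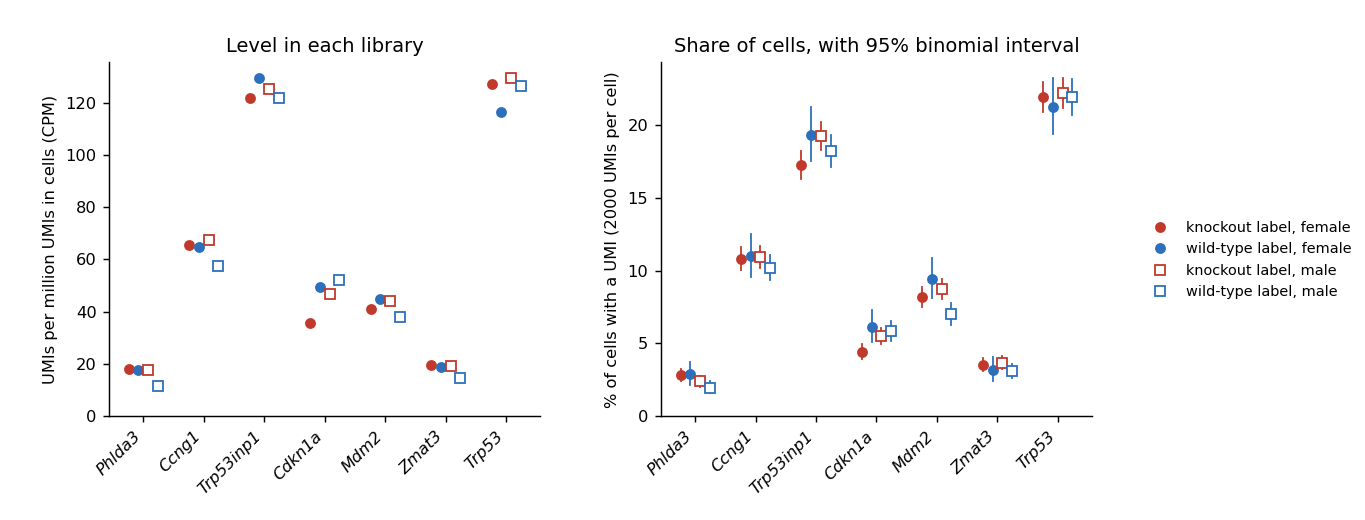
Level of 7 detected members in each library (left, CPM) and the share of cells with a UMI after each cell was thinned to 2000 UMIs (right, percent, with exact 95% binomial intervals), with filled circles for female libraries and open squares for male libraries. Cdkn1a is lowest in the female library labelled knockout and Phlda3 in the male library labelled wild type.

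To compare shares of cells at 1 depth, every cell was thinned to 2000 UMIs. Phlda3 was then detected in 2.80%, 2.87%, 2.38% and 1.95% of cells, Cdkn1a in 4.39%, 6.12%, 5.50% and 5.83%, and Trp53 in 21.9%, 21.3%, 22.2% and 21.9%. Without thinning the shares were 7.12%, 9.37%, 7.78% and 7.23% for Phlda3 and 9.13%, 15.4%, 12.7% and 17.8% for Cdkn1a, and those of Cdkn1a followed the depth of the libraries. Free RNA held these transcripts too: droplets under 200 UMIs gave 12.9 to 18.2 CPM of Phlda3 and 29.0 to 32.6 CPM of Cdkn1a. Resting naive-like cells, a cluster described below, were taken for comparison because they held little of either transcript. The comparison is therefore a description and no test of free RNA. There Phlda3 was found in 0.171%, 1.13%, 0.584% and 0.304% of thinned cells and Cdkn1a in 0.426%, 0%, 0.729% and 0.101%, with median depths of 3211 to 5999 UMIs against 5676 to 10867 UMIs in the other clusters. In the other clusters Phlda3 was found in 2.40% to 3.42% and Cdkn1a in 5.31% to 7.60% of thinned cells. That these lay above the resting cells of the same library each time follows from the choice of cluster. For Phlda3 in the female library labelled wild type the 95% intervals overlapped, at 0.309% to 2.87% and 2.43% to 4.34%. For Ccng1, Trp53inp1, Mdm2, Zmat3 and Trp53 no cluster lacked the transcript. The part of free RNA in the shares of cells was not tested for any member.

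Cdkn1a was concentrated in few cells. The 1% of cells with the most Cdkn1a held 39.2%, 38.0%, 39.7% and 37.2% of its UMIs, and 1 cell of the male library labelled wild type held 138. The top 1% held 29.95% to 30.4% for Phlda3 and 5.28% to 7.35% for Trp53, a share that also depends on how many UMIs a gene has. After thinning, the variance of Cdkn1a counts was 2.17 to 4.19 times their mean, against 1.35 to 1.61 times for Trp53inp1, 1.20 to 1.47 times for Phlda3, 1.01 to 1.05 times for Trp53 and 1.02 to 1.09 times for Mdm2.

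Cells with more Myc had less Phlda3, Ccng1, Trp53inp1 and Zmat3, while Mdm2 and Trp53 hardly differed and Cdkn1a was higher in 3 of the 4 libraries. Cells were split by whether they held a Myc UMI after thinning: 2087, 655, 1978 and 1471 cells did. Phlda3 was at 20.5, 18.1, 19.5 and 12.95 CPM in cells with no Myc UMI and at 8.90, 10.1, 10.6 and 4.03 CPM in cells with 3 or more. Within every library the second value was the lower one, and the 2 ranges did not overlap. Trp53inp1 went from 140.4, 147, 139 and 142 CPM to 64.1, 62.1, 48.5 and 61.6 CPM over the same classes. Its decline was stepwise through 1 and 2 Myc UMIs, where the means were 109 and 84.5 CPM. Ccng1 went from a mean of 71.5 ± 3.97 CPM to 37.6 ± 3.07 CPM and Zmat3 from 20.01 ± 2.15 to 12.2 ± 3.27 CPM (SD, n = 4 libraries).

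On the log2 scale, cells with at least 1 Myc UMI differed from cells with none by -0.60 ± 0.10 for Trp53inp1, -0.53 ± 0.14 for Ccng1, -0.48 ± 0.20 for Zmat3 and -0.46 ± 0.22 for Phlda3 (CPM, mean ± SD over 4 libraries). These 4 members and Trp53, at -0.06 ± 0.04, were lower in all 4 libraries. Of the 10310 genes compared in the same way, 45.5% were lower in all 4 libraries and 27.9% were higher in all 4. The median gene stood at -0.12 on this scale and at -0.02 with TMM scaling, a shift of the zero point. Relative to it, Trp53 and Mdm2 lay close to the median gene: Trp53 was at -0.06 and Mdm2 at -0.09 ± 0.17 in CPM, and both turned to 0.05 with TMM scaling. The 4 declining members kept their direction with TMM scaling, at -0.39 for Phlda3, -0.44 for Ccng1, -0.50 for Trp53inp1 and -0.40 for Zmat3.

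Cdkn1a behaved differently from the 4 declining members. It differed by -0.16, 0.30, 0.45 and 0.74 on the log2 scale between cells with and without a Myc UMI, a mean of 0.33 ± 0.38, and the female library labelled knockout went the other way. Without cells that carry markers of other types, 67 of them in that library, a choice made after the data were seen, the differences were 0.10, 0.32, 0.48 and 0.94, higher in 4 of 4 libraries. With 2 or more Myc UMIs against none they were 0.14, 0.11, 0.29 and 1.22, likewise higher in 4. Within cells of 4000 to 8000 UMIs Cdkn1a was higher in all 4 libraries, at a mean of 1.04, and within 8000 to 16000 UMIs, a range added after the data were seen, it was at -1.18, -0.24, 0.39 and 0.48. The means over 0, 1, 2 and 3 or more Myc UMIs were 41.6, 50.4, 61.5 and 57.3 CPM. Resting naive-like cells, which nearly lack Cdkn1a, made up 27.6% to 31.1% of the cells without a Myc UMI and at most 3.52% of any class with one. Without that cluster, a choice made after the data were seen, the mean difference of Cdkn1a was 0.07 ± 0.36 and that of Phlda3 was -0.71 ± 0.22, lower in 4 of 4 libraries. Cells were also ordered by the other activation markers in place of Myc. The top quartile of each library was set against the bottom quartile. Cdkn1a differed by 1.60 ± 1.05 on the log2 scale, higher in all 4 libraries. Ccng1 differed by -0.94 and Trp53inp1 by -0.81, lower in all 4. For Phlda3 the difference was -0.40 ± 0.51, and the male library labelled wild type was higher, at 0.27. That library was also higher for Phlda3 between Myc classes within 4000 to 8000 UMIs, at 0.33.

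**Figure D2:**
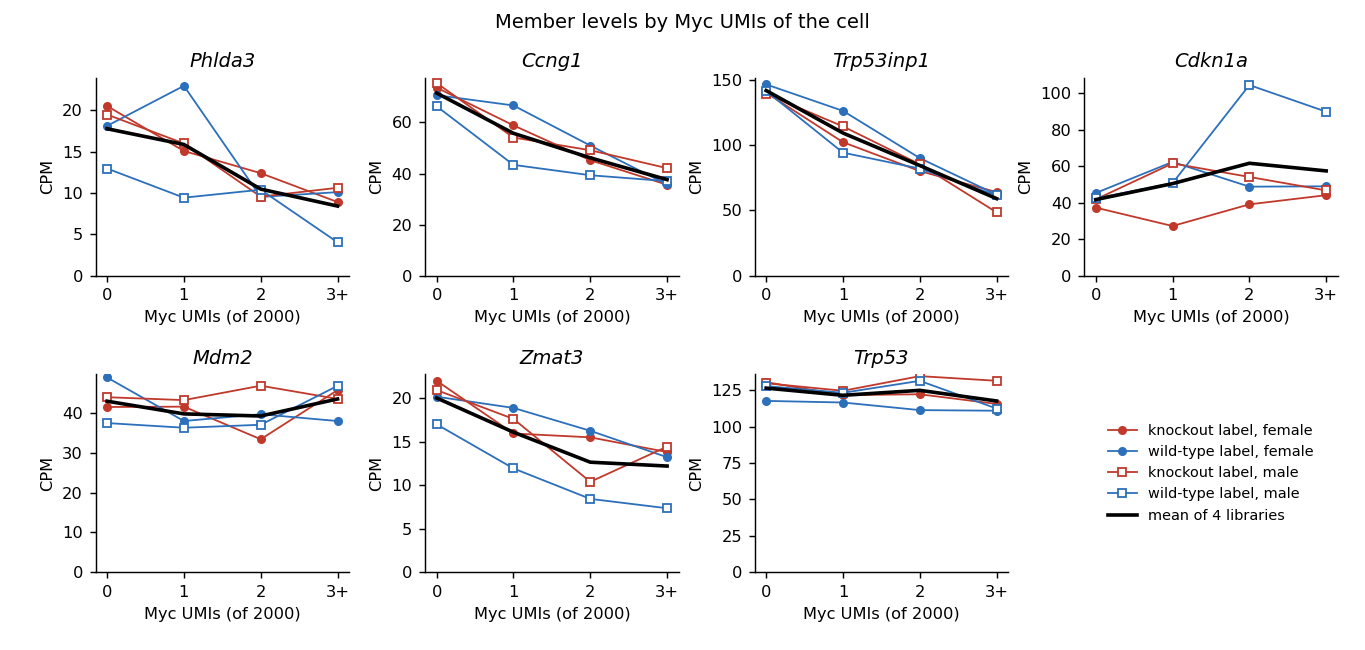
Level (CPM, vertical axes from 0) of 7 members in cells with 0, 1, 2 and 3 or more Myc UMIs among 2000 thinned UMIs, as 1 line a library and a black line for the mean of 4 libraries. Phlda3, Ccng1, Trp53inp1 and Zmat3 decline, Mdm2 and Trp53 stay level, and Cdkn1a is highest in the male library labelled wild type at 2 or more Myc UMIs.

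The other genes of the pathway, from a list of 38 p53 targets that are not members, were called in both directions with Myc. In an edgeR quasi-likelihood fit with a library block, 9 of the 37 tested were higher and 15 were lower in Myc-positive cells at a Benjamini-Hochberg adjusted p under 0.05, with a median of -0.16. Over all 11272 genes tested, 33.1% were higher and 33.9% were lower, with a median of -0.02. Among genes of arrest, growth and quiescence, 4 of 10 were higher and 3 lower, about the share of all genes. The stress kinase Plk3 was higher by 1.19 (SE 0.05, adjusted p = 1.05e-11), the hypoxia-responsive gene Ndrg1 by 1.09 (SE 0.04) and the mTORC1 inhibitor Sesn2 by 0.63 (SE 0.04). Its relative Sesn1 was at -1.20 (SE 0.10) and Gadd45a, a stress sensor, at -1.04 (SE 0.16), followed by Gtse1 at -1.02 (SE 0.26). Of the 5 repair genes all were lower, led by Ddb2, which recognises ultraviolet damage, at -0.80 (SE 0.12). Of the 2 lower genes of metabolism, Dcxr, a carbonyl reductase, was at -1.19 (SE 0.41).

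Of the death genes 4 of 10 tested were higher and 3 lower, again about that share. The higher ones included Dapk1 at 0.55, the nuclease Aen at 0.53 and the death receptor Fas at 0.36. The 3 lower ones, named after their values were seen, were Ei24 at -0.62, Bbc3, which encodes the killer protein PUMA, at -0.45 and Apaf1, the scaffold of the apoptosome, at -0.41. In the feedback class, Ccng2, a cyclin of quiescent cells, had the lowest value of the list at -2.03 (SE 0.11, adjusted p = 3.34e-10). Of 15 tested regulators and relatives of p53, 7 were higher, among them the kinase Atr at 0.32, the acetyltransferase Kat5 at 0.29 and Trp53bp1 at 0.25, and 4 were lower, among them Chek2 at -0.82 and Prkdc at -0.72. Within cells of 4000 to 8000 UMIs only, 17 genes of the 2 lists were called in place of 35.

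Cell size was read as total UMIs of the cell. In bins of 2000 to 4000, 4000 to 8000, 8000 to 16000 and 16000 or more UMIs, Phlda3 averaged 6.39, 12.04, 20.7 and 14.0 CPM and Cdkn1a 30.1, 39.7, 52.8 and 50.02 CPM. Both were thus lowest in the smallest cells. Cells of 8000 or more UMIs exceeded cells of 2000 to 4000 UMIs by 1.67, 1.28 and 0.53 for Phlda3 on the log2 scale in the 3 libraries with a value, the female library labelled wild type having no Phlda3 UMI in its 113 small cells. For Cdkn1a the difference was 1.01, 0.60, 0.47 and 1.11, and without cells that carry markers of other types it was 0.43, 0.71, 0.44 and 0.99. The other members differed by means of -0.05 to 0.13, with libraries in both directions. Cells were also split by quartiles of UMIs within each library, and the top quartile was set against the bottom quartile. Phlda3 differed by 1.49 ± 0.35 and Trp53inp1 by 0.37 ± 0.11, both higher in 4 of 4 libraries. Trp53 differed by 0.16 ± 0.02, likewise higher in 4, and Mdm2 by -0.36 ± 0.06, lower in 4. In that split Cdkn1a was at 1.22, -0.06, 0.60 and 0.68. Of 8787 genes compared between cells of 8000 or more and of 2000 to 4000 UMIs, 28.2% were higher in all 4 libraries and 37.9% lower. The share of all genes was not counted for the split by quartiles.

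Resting naive-like cells made up 51.7%, 41.6%, 59.9% and 56.9% of the cells of 2000 to 4000 UMIs and at most 3.37% of those of 8000 to 16000. Of the cells of 4000 to 8000 UMIs they made up 5.16%, 40.9%, 24.2% and 56.2%, less in the libraries labelled knockout. Of all cells this cluster made up 18.99%, 19.51%, 20.95% and 21.62%, with little difference by label. Its median depth was 3211, 5451.5, 4300 and 5999 UMIs, lower in both libraries labelled knockout. The part of depth in the shares of this fixed range of UMIs was not tested. Without that cluster the difference by size was 0.14 ± 0.72 for Phlda3 (3 libraries) and -0.24 ± 0.36 for Cdkn1a. Among cells with a Myc UMI it was -0.61 for Cdkn1a, lower in 4 of 4 libraries. For Phlda3 it was 0.66, 0.79 and -2.59 in the 3 libraries with a value, a mean of -0.38 that rests on the male library labelled wild type. Among cells with no Myc UMI it was 1.501 for Cdkn1a (4 libraries) and 1.78 for Phlda3 (2 libraries). Across single cells the mean Pearson r with the logarithm of total UMIs lay between -0.03 and 0.05 for the 7 members, and that with Myc between -0.09 for Trp53inp1 and 0.06 for Cdkn1a (19100 cells of 4 libraries, thinned counts). These are weak relations in sparse counts.

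The cells were grouped into 13 clusters without use of the members, the pathway lists or Irf5. Cluster 1 (3885 cells) carried resting naive markers, among them Il7r and S1pr1, and is called resting naive-like. It had 18.3 CPM of Myc, 1.82 ± 0.83 CPM of Phlda3 and 2.18 ± 1.57 CPM of Cdkn1a, but 60.9 CPM of Ccng1, 95.1 CPM of Trp53inp1 and 91.9 CPM of Trp53. The 7 members thus did not share 1 resting level: Phlda3 and Cdkn1a were near 0 in these cells and the others were not. Mdm2 varied least, from 35.6 to 55.8 CPM over the 13 clusters.

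Cluster 5 (1964 cells), led by Idi1, a gene of sterol synthesis, and by Itm2a, had the highest Phlda3. Its level was 49.1, 54.8, 51.5 and 40.1 CPM, above every other cluster in each library. Ccng1 (118 ± 4.69 CPM) and Zmat3 (31.6 ± 3.93 CPM) were also highest there, with Myc at 192 CPM. Cluster 7 (1569 cells), led by L3mbtl3, Trat1 and Il12rb2, had the highest Trp53inp1 at 244 ± 23.9 CPM, with Phlda3 at 27.3 ± 8.40 and Ccng1 at 106 ± 8.65 CPM. At coarser and finer clustering the highest cluster mean of Phlda3 was 28.2 and 60.4 CPM.

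Clusters 3 and 8 (2352 and 828 cells) were led by activation genes, Nr4a1 in cluster 3 and Egr3 in cluster 8, and are called activated-like, with Myc at 701 and 972 CPM. There Phlda3 was at 5.96 and 2.41 CPM, Trp53inp1 at 42.2 and 27.0 CPM, Ccng1 at 24.4 and 40.7 CPM and Zmat3 at 7.44 and 8.64 CPM. Cdkn1a was at 38.6, 103, 71.6 and 102 CPM in cluster 3 and at 27.4, 178, 61.1 and 235 CPM in cluster 8. In cluster 8 both libraries labelled knockout lay below both labelled wild type, and in cluster 3 the same order held. Cdkn1a was also high in 2 small clusters: 126 ± 46.5 CPM in cluster 11 (360 cells, led by Xcl1, Il4 and Cxcr6) and 192 ± 158 CPM in cluster 13 (131 cells, led by Igkc and histone genes). The libraries of cluster 13 ranged from 43.1 to 384 CPM.

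**Figure D3:**
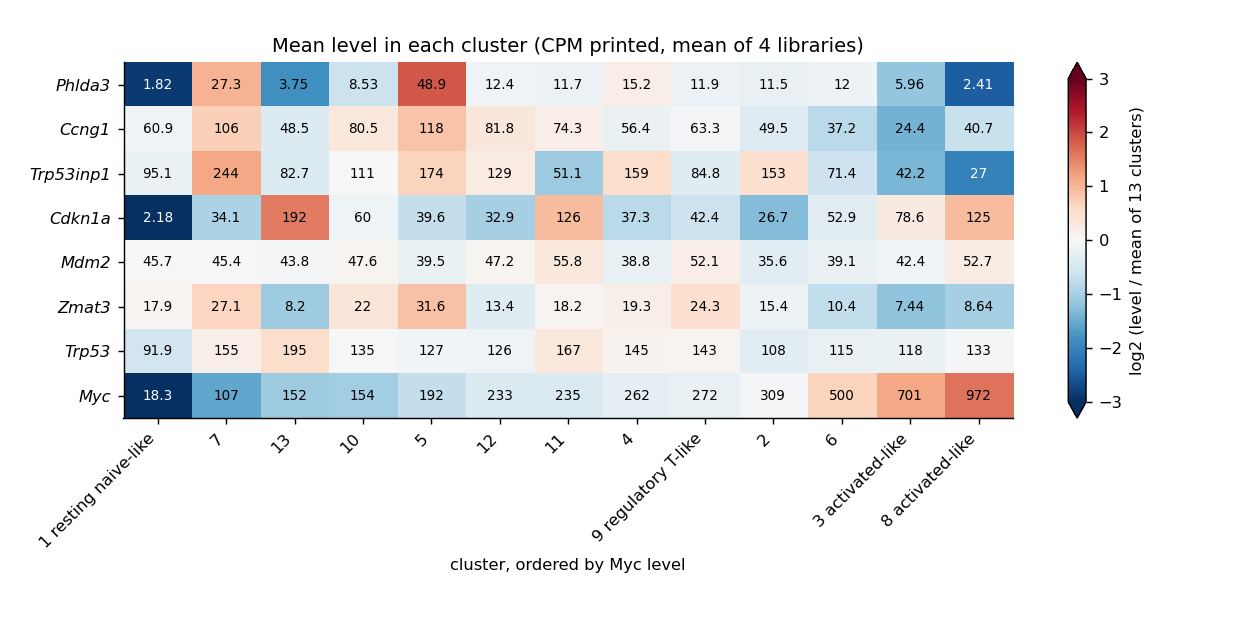
Mean level (CPM, printed, mean of 4 libraries) of 7 members and Myc in 13 clusters ordered by Myc, with colour for the log2 ratio to the mean of the clusters. Phlda3, Ccng1 and Zmat3 peak in cluster 5, Trp53inp1 in cluster 7, and Cdkn1a is at 2.18 CPM in the resting naive-like cluster 1 and at 78.6 to 192 CPM in clusters 3, 8, 11 and 13.

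Phlda3, Cdkn1a, Ccng1 and Zmat3 were found in the same cells more often than their shares give. The odds ratio of detection in the same thinned cell was pooled over libraries. Among the 21 pairs of 7 members it was at least 2 in 6 pairs, and these were all the pairs among those 4 genes. Pairs of other genes were not counted, so the share of all gene pairs at this threshold is not known. Within clusters 5 pairs passed (Ccng1 and Zmat3 at 1.99), without the female library labelled knockout 5 (Cdkn1a and Zmat3 at 1.97), and in unthinned counts stratified by total UMIs 4 (Ccng1 and Cdkn1a at 1.80, Cdkn1a and Zmat3 at 1.91). In thinned counts Phlda3 and Cdkn1a had the highest, 5.30, with 3.95, 7.80, 5.84 and 5.33 in the libraries. Of the 173, 52, 156 and 89 cells with a Phlda3 UMI, 25, 16, 37 and 21 also held a Cdkn1a UMI, together 99 cells where independent detection would give 24.5. Every library was on the same side. Phlda3 and Ccng1 followed at 3.48, with 134 cells against 50.6, then Phlda3 and Zmat3 at 2.88, Ccng1 and Cdkn1a at 2.41, Ccng1 and Zmat3 at 2.36, and Cdkn1a and Zmat3 at 2.17.

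The other 15 pairs lay between 0.95, for Mdm2 and Trp53, and 1.63, for Trp53inp1 and Zmat3. Mdm2 gave 1.61 with Cdkn1a and 1.46 with Phlda3, and Trp53inp1 gave 1.55 with Ccng1 and 1.02 with Cdkn1a. Cells with at least 3 of the 7 members numbered 639 where independence within each library gives 415, a ratio of 1.54 (1.34 to 1.64 in the libraries), and for at least 2 members the ratio was 1.01. Counted within clusters, the odds ratio of Phlda3 and Cdkn1a was 4.88 and that of Phlda3 and Ccng1 was 2.66. In unthinned counts stratified by total UMIs the order turned, with 3.46 and 5.69. The 6 pairs use the same cells and share genes, so they are not 6 separate observations.

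**Figure D4:**
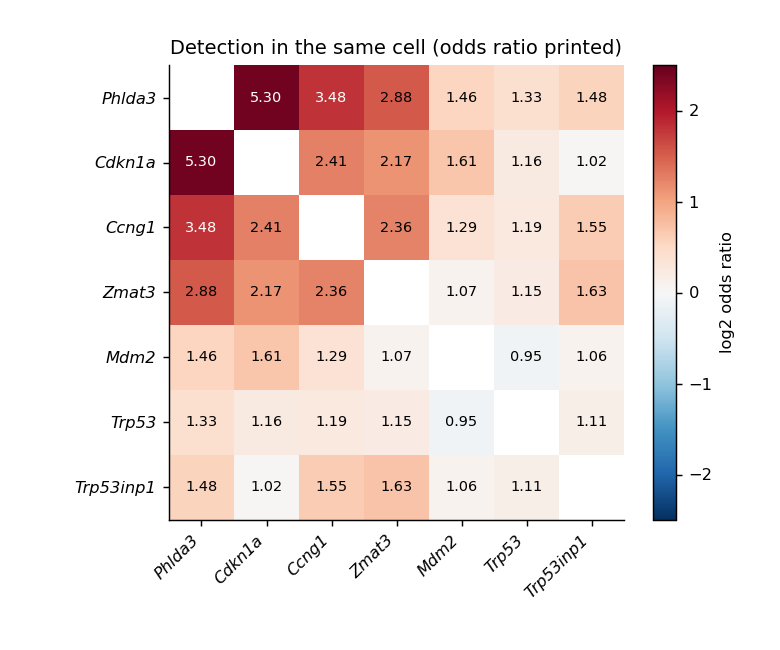
Odds ratio of detecting both genes of a pair in a cell thinned to 2000 UMIs (printed, pooled over 4 libraries), with colour for its log2 value. The block of Phlda3, Cdkn1a, Ccng1 and Zmat3 holds the 6 values from 2.17 to 5.30, and pairs with Mdm2, Trp53 or Trp53inp1 lie between 0.95 and 1.63.

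Cells with a Phlda3 UMI also carried more of many other p53 targets, and less of some. None of these targets was used to choose the cells. UMIs of each gene in Phlda3-positive cells were set against the rate in Phlda3-negative cells of the same library (log2, 0.5 UMI added, genes with at least 10 UMIs in every library). Of the 38 targets on the list 37 could be compared, and 19 were higher in all 4 libraries and 8 lower in all 4, with a median of 0.31. Over the 11291 genes compared, 17.5% were higher in all 4 libraries and 16.2% lower, with a median of -0.04. With the expected level standardised by cluster, 19 targets were higher and 1 lower, against 13.2% and 8.32% of all genes. Phlda3-positive cells were somewhat deeper, with medians of 5683, 9118.5, 7980 and 11378 UMIs against 5081, 8375, 6711 and 9617.5. In cells of 8000 or more UMIs, 14 of 36 targets were higher in all 4 libraries and 1 was lower, against 12.6% and 10.06% of all genes there, and 2 of the 6 other members were higher in all 4 in place of 6.

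Gtse1, a protein that counters p53 and is made in dividing cells, stood 3.17 ± 0.54 higher in Phlda3-positive cells, on 58 UMIs. Psrc1, a spindle protein, was 2.65 ± 0.49 higher and Cdkn1a 2.57 ± 0.71 higher (mean ± SD over 4 libraries). Among death genes, the receptor Tnfrsf10b was higher by 2.04 ± 0.18, Bbc3 by 1.85 ± 0.41, Apaf1 by 1.45, Bax by 1.29 ± 0.18, Pmaip1 (which encodes NOXA, on 18 UMIs) by 1.03 ± 0.47 and Fas by 0.52. Of the repair genes, the polymerase Polk was higher by 1.88 and Ercc5 by 1.10. Ccng1 and Zmat3 were higher by 1.82 and 1.76, Mdm2 by 0.67, Trp53inp1 by 0.56 and Trp53 by 0.26, each in 4 of 4 libraries.

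The 8 targets lower in all 4 libraries were Ccng2 at -1.33, Btg2 at -0.74, Rrm2b at -0.73, Ndrg1 at -0.62, Plk3 at -0.61, Sesn1 at -0.46, Cop1 at -0.19 and Ddb2 at -0.14. Ccng2 and Sesn1 are also known targets of FOXO factors. Of the 15 regulators compared, 2 were higher and 3 lower in all 4 libraries. When cells were split by Ccng1 in place of Phlda3, 15 of 37 targets were higher in all 4 libraries and 4 lower, against 20.4% and 9.83% of all genes. These splits, and their alternatives, were made after the data were seen.

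**Figure D5:**
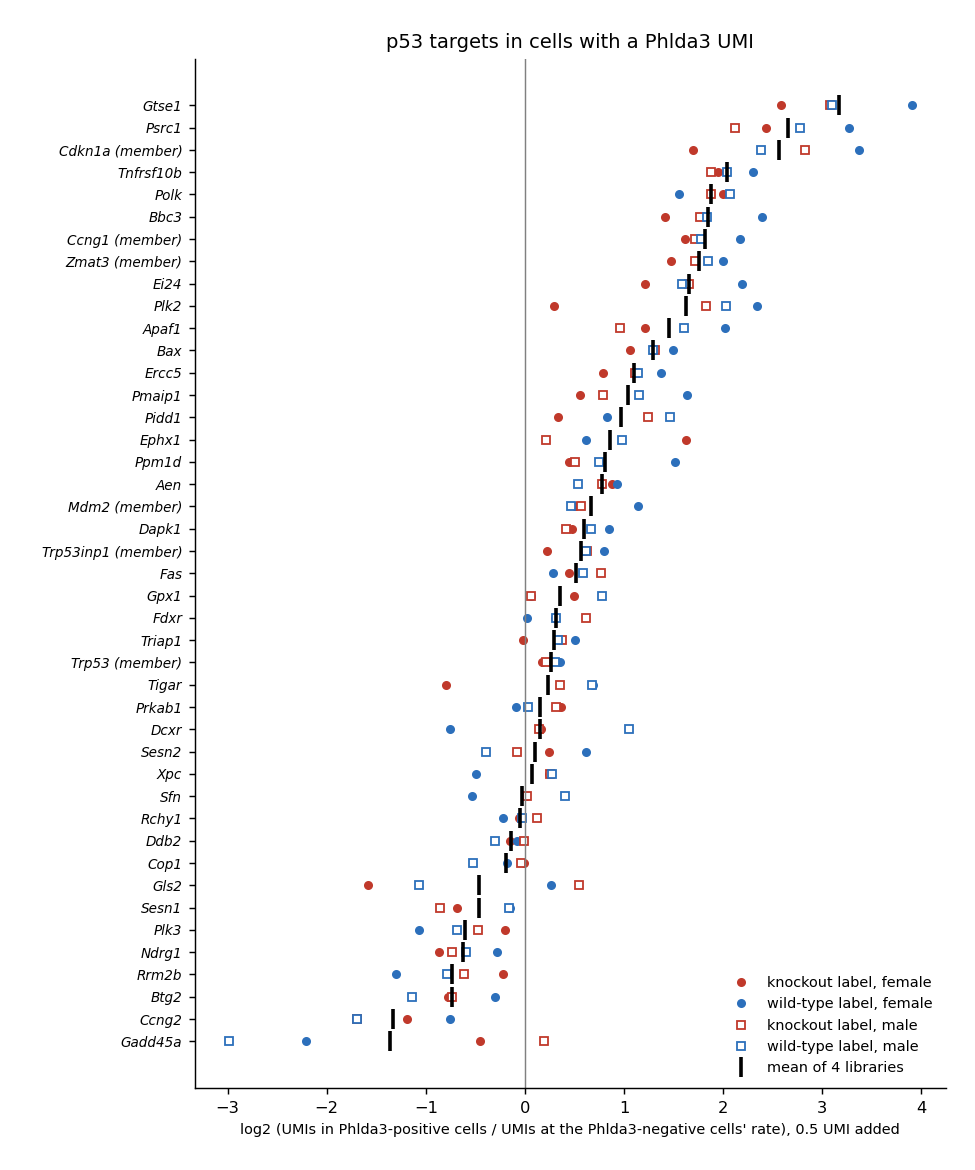
Log2 ratio of UMIs in Phlda3-positive cells to the rate in Phlda3-negative cells of the same library, for 37 p53 targets and 6 members, with 1 symbol a library and a bar for the mean. Gtse1, Psrc1 and Cdkn1a lead at 3.17, 2.65 and 2.57, and Ccng2 is below 0 in all 4 libraries.

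By Pearson r across thinned cells, averaged over the 4 libraries, the genes most like Ccng1 among 6393 genes were Bax (0.12), Cdkn1a (0.11) and Rps27l (0.10), and the genes most like Trp53inp1 were Ccr7 (0.13), Cd28 (0.12) and Gpr174 (0.10). Mdm2 was most like Cdkn1a (0.06), Malat1 (0.05) and Gbp4 (0.04), and Trp53 was most like Cxcl10 (0.05), Pim1 (0.04) and Eif2s2 (0.04). Cdkn1a ranked first for Phlda3 among 6394 genes (0.16) and Ccng1 ranked first for Zmat3. Genes most opposite to both Ccng1 and Trp53inp1 included the immediate early genes Nr4a1 and Nfkbid. The sum of the members was most like Bax, Rps27l and Cd28, and Myc ranked 6345 of 6388 for it. All these r are weak and come from cells that share libraries and depth.

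By genotype label, no member passed the test over all cells. In the edgeR fit of summed counts with sex as a term, 0 of 7 members and 155 of 12855 genes had an adjusted p under 0.05, that is 1.21% of the genes, and 0.397% were called lower. Without adjustment 1029 genes had p under 0.05, and DESeq2 called 47 genes and no member. Phlda3 was 0.28 higher in the libraries labelled knockout on the log2 scale (SE 0.12, edgeR adjusted p = 0.538), at 17.7 ± 0.223 against 14.5 ± 4.24 CPM (SD, n = 2 libraries each). At equal depth and cell number Phlda3 was at 0.088. Nearly all of the difference lay in the male pair, where it was 0.61 against 0.03 in the female pair. Leaving out the female library labelled wild type, with the sex term dropped, gave 0.53 (adjusted p = 0.0490), and leaving out the male one gave -0.02. Cdkn1a was lower by -0.37 (SE 0.09, edgeR adjusted p = 0.0683), in both sex pairs. With likely doublets removed it was at -0.39 (adjusted p = 0.0289). Without the female library labelled knockout it was at -0.18 (adjusted p = 1.00) and without the male one at -0.58 (0.128), both with the sex term dropped. DESeq2 gave an adjusted p of 0.877, the fit without a filter 0.454 and that without the sex term 0.906. Zmat3 was at 0.17, Trp53inp1 at -0.09, Ccng1 at 0.06, Mdm2 at -0.01 and Trp53 at 0.01.

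In Myc-positive cells 1 of the 7 members passed. Cdkn1a stood at 33.3, 55.6, 57.2 and 70.4 CPM there, so the library labelled knockout was the lower one within each sex while the labels overlapped across the sexes. It was lower in the libraries labelled knockout by -0.56 (SE 0.10, edgeR adjusted p = 0.00392), and the other 6 members lay between -0.07 and 0.19. In the same fit 1.01% of 10844 genes were called, and 0.387% were called lower. The share of these cells with a Cdkn1a UMI was 10.97%, 19.8%, 17.7% and 27.0% before thinning, with median depths of 5641, 9268, 7471.5 and 10574 UMIs that follow the same order by label within each sex. The 5 richest cells held 9.38%, 34.2%, 12.6% and 23.3% of the Cdkn1a UMIs. Brought to equal depth and cell number it was at -0.70 (adjusted p = 0.0464).

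That call rested on the settings. It was lost at a difference of similar size with DESeq2 (-0.58, adjusted p = 0.664), without a filter on low counts (-0.55, 0.145), without the sex term (-0.55, 0.867), at 5% mitochondrial UMIs (-0.59, 0.102) and without cells that carry markers of other types (-0.59, 0.0733). With 3 libraries the sex term cannot be kept, so fits without a library changed both. The call was lost without the female library labelled knockout (-0.22, adjusted p = 1.00), the female labelled wild type (-0.72, 0.317) or the male labelled wild type (-0.33, 0.756), and kept without the male labelled knockout (-1.01, 0.00223). In the clusters named for activation, a grouping that was not planned, Cdkn1a stood at 35.7, 122, 69.4 and 129 CPM. Both libraries labelled wild type lay above both labelled knockout there. In the other clusters Cdkn1a stood at 35.8, 35.4, 42.6 and 37.7 CPM, and this contrast between clusters was not tested. The 5 richest cells held 19.4%, 52.7%, 22.5% and 31.0% of the Cdkn1a UMIs of the activation clusters, and without them 148 of 313 UMIs were left in the female library labelled wild type. Whether the difference by label itself differed between Myc-positive and Myc-negative cells was tested as an interaction in edgeR. For Cdkn1a it was -0.38 (SE 0.17, unadjusted p = 0.0430, adjusted p = 1.00), 0 of 7 members passed, and 0.0848% of 11795 genes did.

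The wider pathway gave no call by label. Over all cells 0 of 38 targets passed, 21 of them higher in the libraries labelled knockout, with a median of 0.02 against 0.00 over all genes, and 0 of 15 regulators passed. In Myc-positive cells 0 of 36 targets and 0 of 15 regulators passed.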

How the data were processed

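Per the file headers and the submitters' processing notes, the deposited files are the authors' raw UMI counts from Cell Ranger, one matrix a library with all barcodes and no normalization. The notes name Cell Ranger 6.0.2 and mm10, while the headers name another release. The annotation and the use of strand are not given in the sources used here. Cells were kept at 2000 or more UMIs, 500 or more genes and at most 10% mitochondrial UMIs. Doublets were kept, since the automatic threshold of scrublet in scanpy 1.11.5 marked only 0.0324% of cells in 1 library and so did not work there; removing the highest scores in proportion to cell number was an alternative. Clusters came from leidenalg 0.10.2 at resolution 1, on 2000 variable genes centred within libraries, 30 components and 15 neighbours; a cluster was named from at least 3 listed markers among its leading genes.

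UMI counts were summed per library and tested in edgeR 4.0.16 (R 4.3.3) with TMM factors, filterByExpr, sex or library as a term, and Benjamini-Hochberg adjustment over all genes at 0.05. DESeq2 1.42.0 was an alternative. The fits were tested on simulated data with known changes. Replicate numbers only name samples, and sex is the label that pairs a library of each genotype. CPM were computed from the UMIs of the cells summed, without TMM factors unless stated. The members and lists were chosen with earlier results of these data known. Named are all members and, of each list, the called genes with the largest changes, at most 6 in each direction; for each member in at least 5% of thinned cells, the 3 most alike genes. Names in the split by Phlda3 were chosen after their values were seen. Alternatives covered the tool, scaling, filter, sex term, depth, doublets, mitochondrial share, cells of other types, size range and size split, cluster resolution and each library left out.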

Additional observations from a re-analysis of the deposited data

Results flagged for a closer look

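Mdm2 and Trp53inp1 moved in opposite directions by genotype label in the 2 sexes, each with 1 library against 1, and these differences were not tested. For Mdm2 the library labelled knockout was at -0.13 relative to the library labelled wild type in females and at 0.22 in males on the log2 scale, a difference of -0.35. For Trp53inp1 the values were -0.09 in females and 0.04 in males, a difference of -0.13. Both female values lay below both male values.

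Mdm2 also differed in its relation to Myc and to size. Between Myc-positive and Myc-negative cells it was lower in both female libraries and higher in both male libraries, and the means of the sexes differed by -0.21 on the log2 scale. The male values were close to 0, at 0.0056 and 0.029, and the female library labelled wild type was at -0.35. With doublets removed or at 5% mitochondrial UMIs the male library labelled knockout was at -0.023 or -0.0076, and within 4000 to 8000 UMIs all 4 libraries were lower. Between large and small cells it was lower in both libraries labelled knockout and higher in both labelled wild type, with a difference of means of -0.87. Between the top and bottom quartiles of each library's cells by UMIs it was lower in all 4 libraries, by -0.27 to -0.41. The small cells of the libraries labelled wild type held 9 and 15 Mdm2 UMIs. Neither difference was tested.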

How the results depend on the processing

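By genotype label over all cells, 1 member was called with likely doublets removed and 0 to 1 when each library was left out. In Myc-positive cells 0 members were called with DESeq2, without a filter, without the sex term (no replicate block, the only pairing the labels give), at 5% mitochondrial UMIs and without cells that carry other types' markers, and 0 to 1 with each library left out. The count of genes called over all cells was 155, against 47 with DESeq2, 20 without a filter, 7 without the sex term, 96 without cells of other types' markers, 49 at equal depth and 43 to 117 with each library left out. In Myc-positive cells it was 110, against 15 with DESeq2, 165 with DESeq2 size factors, 30 without a filter, 5 without the sex term, 180 with doublets removed, 20 at 5% mitochondrial UMIs, 38 without cells of other types' markers, 32 at equal depth and 19 to 142 with each library left out. Uncalled members changed sign by label. At equal depth and cell number over all cells Ccng1 was at -0.0056, Mdm2 at 0.074 and Trp53 at -0.029, while Phlda3 was at 0.088, Trp53inp1 at -0.18 and Zmat3 at 0.095 without a change of sign, and Mdm2 was at 0.00071 with 5% mitochondrial UMIs. In Myc-positive cells at equal depth Phlda3 was at -0.57, Ccng1 at -0.19 and Trp53 at -0.035; Trp53 was also at -0.00021 with DESeq2, -0.0013 with its size factors, -0.0035 without the sex term and -0.0056 without doublets. With each library left out, values over all cells ran from -0.58 to -0.18 for Cdkn1a, -0.020 to 0.53 for Phlda3, -0.0048 to 0.11 for Ccng1, -0.11 to 0.080 for Mdm2, -0.0061 to 0.31 for Zmat3 and -0.073 to 0.10 for Trp53. In Myc-positive cells they ran from -1.01 to -0.22 for Cdkn1a, -0.33 to 0.52 for Phlda3, -0.16 to 0.21 for Ccng1, -0.18 to 0.026 for Trp53inp1, -0.0033 to 0.14 for Mdm2, -0.17 to 0.49 for Zmat3 and -0.080 to 0.092 for Trp53. Between Myc-positive and Myc-negative cells, 5 members were lower in all libraries, against 3 by activation markers and 3 by UMIs a cell, and Trp53 turned to 0.093 within 4000 to 8000 UMIs, 0.16 by activation markers and 0.12 by UMIs a cell. Pathway genes called with Myc numbered 17 within 4000 to 8000 UMIs against 35. By size, 2 members were higher in every library with a value, against 7 by UMIs a cell, which a split by total UMIs itself raises, 0 among Myc-positive cells, 4 among Myc-negative cells, 0 without the resting naive-like cluster and 2 to 5 with each library left out. Without that cluster Cdkn1a turned to -0.24, and among Myc-positive cells Phlda3 turned to -0.38 and Cdkn1a to -0.61. The highest cluster mean of Phlda3 was 28.2 CPM at resolution 0.5 and 60.4 CPM at resolution 2. Leaving out the resting naive-like cluster or cells with other types' markers was chosen after seeing the data. The cause of these changes was not tested beyond the values given. No cluster was named as another cell type, so leaving out such clusters removed no cell. In Phlda3-positive cells 14 to 19 targets were higher in all 4 libraries under the other settings, against 19. With each library left out 19 to 23 were higher in the 3 others, where 21.9% to 22.4% of all genes were. Of the co-detected pairs, 4 passed in unthinned counts, 5 within clusters and 5 to 6 with each library left out, against 6.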

Other observations

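Genes outside the pathway lists were looked at in Phlda3-positive cells after their values were seen. Among the 20 genes with the highest mean difference, 3 were members, 6 were listed targets and 11 were on neither list. Of those 11, Inka2 was higher by 2.82 ± 0.31 in Phlda3-positive cells (log2, mean ± SD over 4 libraries, on 96 UMIs). Tnfsf4, which encodes the costimulatory ligand OX40L, was higher by 2.65 ± 0.89 on 36 UMIs. Slc19a2, a thiamine transporter, was higher by 2.27 ± 0.21 on 145 UMIs and Ptp4a3, a phosphatase of growing cells, by 1.69 ± 0.22 on 552 UMIs. Dglucy, Zfp365, Dennd2c, Ddias and Serpine2 were at 2.25, 2.23, 2.18, 2.15 and 2.00. All of these were higher in 4 of 4 libraries. They were ranked by the same values, so their size is a description. With the expected level standardised by cluster, Inka2, Tnfsf4, Slc19a2 and Ptp4a3 were at 2.22, 2.23, 1.64 and 1.29. Slc19a2 was also among the leading genes of cluster 5, which had the highest Phlda3.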
